A study of Mus musculus with 6 samples.

Results

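The choroid plexus is a folded epithelium that hangs in the ventricles of the brain, grows from the edge of the cortical hem next to the cortex, and secretes cerebrospinal fluid. Its genes were followed here in bulk RNA-seq of fetal mouse cortex. The set held 10 genes: Ttr, Clic6, Kcne2, Folr1, Aqp1, Slc4a5, Sostdc1, Otx2, Kl and Prlr, out of 45583 rows of the count table. They were selected on their known expression in this epithelium and with the counts of the same 6 libraries in view, in which several of them followed Ttr from library to library. Their correlation with Ttr and the libraries in which they stood high are therefore given as a description, with no test.

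The cortex came from male fetuses at GD15.5 (gestational day) of the Cyp19-EGFP strain, which carries a bacterial artificial chromosome holding Cyp19a1, the aromatase gene, with EGFP placed before its start codon. The labels give the genotype of all 6 fetuses as WT, SRY +. Bisphenol A (BPA) is a chemical used in making plastics, and it binds oestrogen receptors. Dams of the BPA group received it at 50 µg/kg under the skin each day from GD10.5 to GD14.5. Dams of the vehicle group received peanut oil (the study's methods add ethanol). Each group held 3 libraries, each labelled with a fetal number and none with a litter, so the p-values measure the spread between these libraries and litter and treatment cannot be told apart. Totals ran from 3444601 to 7180835 counts per library, and 3 counts, the limit that a count of 0 allows, corresponded to 0.422 to 0.875 CPM. CPM are counts scaled to each library's total, corrected by edgeR's TMM factors. On the first principal component of log2 CPM, with 31.7% of the variance, vehicle replicate 2 and BPA replicate 2 had the highest scores, 17.3 and 17.4, and the other 4 libraries were spread at least as widely, from -23.7 to 2.02. Replicate numbers were given here in accession order within each group and pair nothing. In the labels those 2 libraries carry the neighbouring sample numbers S6 and S7, and what that number stands for is not stated.

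In the choroid plexus, OTX2 is the homeodomain factor that the epithelium needs to form and persist. TTR, the carrier of thyroxine and of the retinol-binding protein, is its most abundant secreted product, and water and ion transport through AQP1, the bicarbonate cotransporter of Slc4a5 and the potassium channel subunit of Kcne2 drives fluid secretion. The cortex itself makes little of most of these products, and in bulk tissue fewer cells of a type and less RNA per cell cannot be told apart.

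The start sites of Kcne2, Aqp1, Slc4a5 and Otx2 are shown because OTX2 binds the letters TAATCC and the RNA of Otx2 was measured beside that of the other members. Promoter windows of 300 bases (around a RefSeq start, mostly before it, GRCm38.p6) were used for 6 of the 10 members, 12 windows in all. Windows on the chromosome that holds Ttr were left out, here and in the shares over all windows below. Capitals mark the letters TAATCC, those of a forkhead motif, GTAAACA, or those of the TATA box, TATAAA, searched on both strands, so that a hit on the other strand appears as its reverse complement.
Kcne2, chr16:92292139-92292438, plus strand: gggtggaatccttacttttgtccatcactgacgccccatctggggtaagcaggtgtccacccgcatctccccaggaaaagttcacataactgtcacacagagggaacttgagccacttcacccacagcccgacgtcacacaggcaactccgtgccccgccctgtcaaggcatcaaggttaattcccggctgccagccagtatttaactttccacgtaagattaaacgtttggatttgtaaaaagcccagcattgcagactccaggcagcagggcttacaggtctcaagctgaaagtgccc
Aqp1, chr6:55336049-55336348, plus strand: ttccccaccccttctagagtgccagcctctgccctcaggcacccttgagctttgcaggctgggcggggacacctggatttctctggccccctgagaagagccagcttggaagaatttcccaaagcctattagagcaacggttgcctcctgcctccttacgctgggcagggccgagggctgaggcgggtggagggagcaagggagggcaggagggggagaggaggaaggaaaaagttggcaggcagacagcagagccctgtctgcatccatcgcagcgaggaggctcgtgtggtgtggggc
Slc4a5, chr6:83237125-83237424, plus strand: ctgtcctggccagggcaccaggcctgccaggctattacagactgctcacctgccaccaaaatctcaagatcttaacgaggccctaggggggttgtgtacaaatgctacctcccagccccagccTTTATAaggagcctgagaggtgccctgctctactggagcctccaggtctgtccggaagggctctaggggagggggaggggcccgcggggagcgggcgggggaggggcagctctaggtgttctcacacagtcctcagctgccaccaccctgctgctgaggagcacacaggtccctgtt
Otx2, chr14:48665060-48665359, minus strand: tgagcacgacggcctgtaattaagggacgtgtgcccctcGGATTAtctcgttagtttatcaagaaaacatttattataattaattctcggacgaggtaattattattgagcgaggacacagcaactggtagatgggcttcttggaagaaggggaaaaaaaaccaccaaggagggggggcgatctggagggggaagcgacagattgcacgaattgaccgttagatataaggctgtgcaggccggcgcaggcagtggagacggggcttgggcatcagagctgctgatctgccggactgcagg
None of the 3 sets of letters occurred in the windows of Kcne2, Aqp1 or Kl. Slc4a5 held TATAAA on the other strand 127 bases before its RefSeq start. The Otx2 window shown held TAATCC on the other strand 211 bases before the start, another Otx2 window held TATAAA at 192 bases, and a Prlr window held GTAAACA at 215 bases. Of 32851 windows of this length, 7.06% held TAATCC, 3.65% GTAAACA and 13.6% TATAAA. A match describes letters only.

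Ttr (ENSMUSG00000061808.4) was the most abundant member. It had 15, 1386 and 29 counts in vehicle replicates 1, 2 and 3 (2.21, 195 and 5.72 CPM) and 76, 1898 and 35 counts in BPA replicates 1, 2 and 3 (11.9, 308 and 10.2 CPM). A single library of each group was high, and the rest of that group was low: vehicle replicate 2 was 34.1 times the next vehicle library and BPA replicate 2 was 25.8 times the next BPA library. The groups overlapped. The vehicle mean was 67.7 ± 110 CPM (SD, n = 3) and the BPA mean 110 ± 172 CPM (SD, n = 3).

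**Figure D1:**
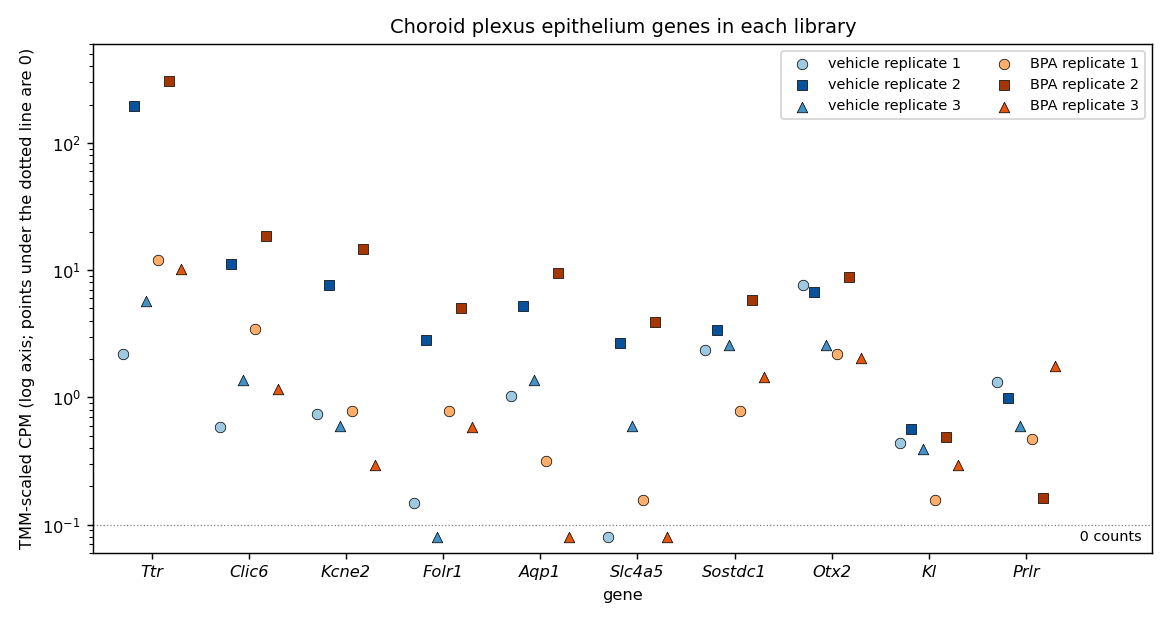
CPM of each of the 10 genes in each library on a log axis; squares are the replicates numbered 2, circles and triangles the replicates 1 and 3, blue vehicle and orange BPA, with counts of 0 drawn under the dotted line. The squares stand highest in both colours for Ttr (195 and 308 CPM), Clic6, Kcne2, Folr1, Aqp1 and Slc4a5, while Otx2 is also high in vehicle replicate 1 and Prlr is not high in either square.

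The transport genes divided the libraries in the same way. Clic6 (ENSMUSG00000022949.9, chr16:92485736-92541243, plus strand), a member of the chloride intracellular channel family, had 4, 79 and 7 counts in vehicle and 22, 114 and 4 counts in BPA. Its level was 11.1 CPM in vehicle replicate 2 and 18.5 CPM in BPA replicate 2, against 0.588 to 3.45 CPM in the other 4 libraries. It overlaps 2410124H12Rik on the same strand, so reads in the shared stretch could be counted for either gene. Kcne2 (chr16:92292389-92298129, plus strand) had 5, 54 and 3 counts in vehicle and 5, 91 and 1 counts in BPA. That was 7.60 and 14.8 CPM in the replicates numbered 2, 10.3 and 18.8 times the next library of the same group. The other 4 libraries held 0.292 to 0.785 CPM of Kcne2, close to what 3 counts give.

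Aqp1 (chr6:55336432-55348555, plus strand), the water channel of the apical membrane, had 7, 37 and 7 counts in vehicle and 2, 58 and 0 counts in BPA. The higher libraries were again the replicates numbered 2, at 5.21 and 9.43 CPM. Slc4a5 (chr6:83219828-83304945, plus strand) had 0, 19 and 3 counts in vehicle and 1, 24 and 0 counts in BPA, so that outside vehicle replicate 2 and BPA replicate 2 it did not exceed the limit of 3 counts. Folr1 (chr7:101858331-101870788, minus strand), the folate receptor that carries 5-methyltetrahydrofolate across the plexus into the fluid, had 1, 20 and 0 counts in vehicle and 5, 31 and 2 counts in BPA. Anapc15 overlaps it on the opposite strand, and whether the counting used strand was not given in the sources used here.

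Sostdc1, Otx2, Kl and Prlr departed from this pattern. Sostdc1 (chr12:36314139-36318452, plus strand), a secreted antagonist of BMP and Wnt signals, had 16, 24 and 13 counts in vehicle (2.35, 3.38 and 2.56 CPM) and 5, 36 and 5 counts in BPA (0.785, 5.85 and 1.46 CPM). Vehicle replicate 2 was 1.32 times the next vehicle library, and BPA replicate 2 was 4.01 times the next BPA library. Otx2 (chr14:48657677-48673819, minus strand) had 52, 48 and 13 counts in vehicle (7.65, 6.76 and 2.56 CPM) and 14, 54 and 7 counts in BPA (2.20, 8.78 and 2.04 CPM). Vehicle replicate 1, with the lowest Ttr of the 6 libraries, thus had the highest Otx2 of the vehicle group. Otx2 also overlaps Gm49154 on its own strand, and Otx2os1, the antisense RNA that overlaps it, had 0 or 1 counts in every library. Kl (chr5:150952607-150993817, plus strand), which encodes klotho, the co-receptor for the hormone FGF23, had 3, 4 and 2 counts in vehicle and 1, 3 and 1 in BPA. Prlr (chr15:10177238-10349180, plus strand), the prolactin receptor, had 9, 7 and 3 counts in vehicle and 3, 1 and 6 in BPA. Prlr overlaps Gm21973 on the same strand. Kl had at most 4 counts, and Prlr, with at most 9 counts, was lowest in BPA replicate 2, where Ttr was highest.

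All members together took 112, 1678 and 80 counts in vehicle and 134, 2310 and 61 in BPA. As a share of the library this was 0.00163% (95% exact Clopper-Pearson interval 0.00134 to 0.00196), 0.0234% (0.0223 to 0.0245) and 0.00159% (0.00126 to 0.00198) in vehicle replicates 1, 2 and 3. In BPA replicates 1, 2 and 3 it was 0.00209% (0.00175 to 0.00247), 0.0379% (0.0364 to 0.0395) and 0.00177% (0.00135 to 0.00227). Reads carried no molecular identifiers, so intervals cover counting error only. Ttr made up 82.6% and 82.2% of the member counts in vehicle replicate 2 and BPA replicate 2, and between 13.4% and 57.4% in the other 4 libraries.

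The members were set against Ttr in vehicle replicate 2 and BPA replicate 2. For each 100 counts of Ttr, vehicle replicate 2 had 5.70 counts of Clic6 and BPA replicate 2 had 6.01. The same ratio was 3.90 and 4.79 for Kcne2, 2.67 and 3.06 for Aqp1, 1.44 and 1.63 for Folr1, 1.37 and 1.26 for Slc4a5, and 1.73 and 1.90 for Sostdc1. In the other 4 libraries Clic6 had 11.4 to 28.9 counts per 100 of Ttr, and Sostdc1 6.58 to 107, from few counts. Like Slc4a5, the remaining members had less per 100 counts of Ttr in BPA replicate 2 than in vehicle replicate 2. Otx2 had 2.85 against 3.46, Kl 0.158 against 0.289 and Prlr 0.0527 against 0.505, the last from 1 and 7 counts. The CPM of Ttr was 1.58 times as high in BPA replicate 2 as in vehicle replicate 2 (95% exact binomial interval of the ratio 1.47 to 1.70, counting error only). The ratio was 1.67 (1.24 to 2.25) for Clic6, 1.95 (1.37 to 2.78) for Kcne2, 1.81 (1.18 to 2.81) for Aqp1 and 1.30 (0.864 to 1.96) for Otx2. These ratios compare 2 libraries and say nothing of the treatment.

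**Figure D2:**
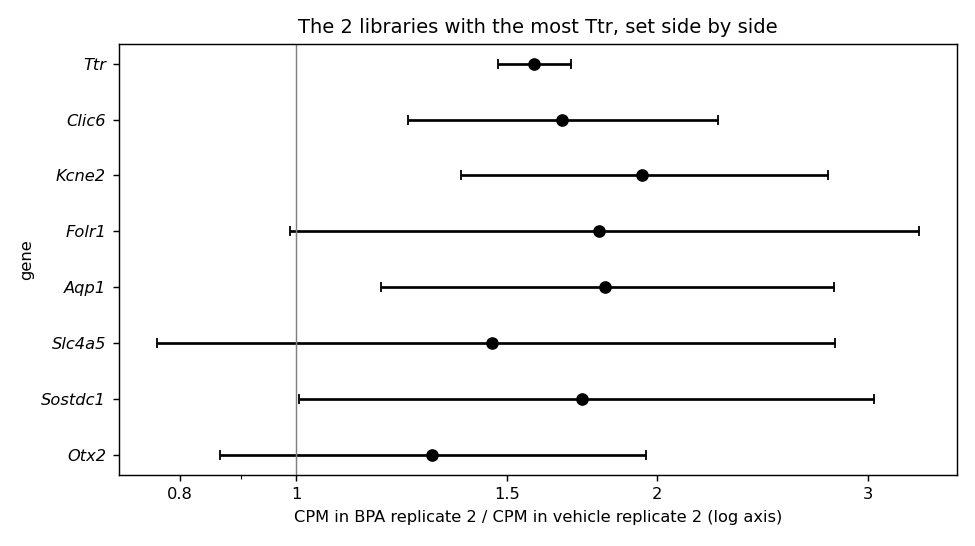
Ratio of CPM in BPA replicate 2 to CPM in vehicle replicate 2 for 8 genes (points, log axis) with the 95% exact binomial interval of counting error (bars); Kl and Prlr, with at most 7 counts in these libraries, are not drawn. Points lie between 1.30 for Otx2 and 1.95 for Kcne2, and the intervals of Folr1, Slc4a5 and Otx2 include 1.

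Levels between genes were compared per kilobase of exon. In BPA replicate 2 the order was Ttr at 260 CPM per kb, Kcne2 at 8.37, Clic6 at 4.73, Aqp1 at 3.59, Sostdc1 at 3.28, Folr1 at 2.19, Otx2 at 2.08 and Slc4a5 at 0.672, with Kl at 0.0523 and Prlr at 0.0106. In vehicle replicate 1 it was Ttr at 1.86, Otx2 at 1.81 and Sostdc1 at 1.32 CPM per kb, with no other member above 0.416. The lead of Ttr thus held in both libraries, by a wide margin in the first and by less than the counting error of 15 counts in the second.

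Over the 6 libraries, the log2 CPM of Clic6 had a Pearson r of 0.97 with that of Ttr (Spearman rho 0.94), Folr1 0.95 (rho 0.94), Kcne2 0.93 (rho 0.77) and Slc4a5 0.92 (rho 0.71). Aqp1 had 0.76 (rho 0.54), Sostdc1 0.63 (rho 0.49), Otx2 0.49 (rho 0.26), Kl 0.46 (rho 0.37) and Prlr -0.52 (rho -0.60). The libraries fell into separate clusters on Ttr, so r here mostly measures the distance between vehicle replicate 2 and BPA replicate 2 and the rest. Over the other 4 libraries r was 0.81 for Clic6, 0.71 for Folr1, 0.13 for Slc4a5, -0.36 for Kcne2, -0.70 for Aqp1, -0.78 for Sostdc1, -0.95 for Otx2, -0.85 for Kl and -0.28 for Prlr. Of 13741 genes tested, 228 (1.66%) had r over 0.9 with Ttr. The 10 with the highest r that were no members were Gm6872, Snrpd3, Trappc6b, Prkab1, Zfp746, Vmp1, Trappc2, Sf3b4, Gm19587 and Cap1, with r from 0.998 to 0.979. Their range between libraries was small: Snrpd3, a core protein of the spliceosome, ran from 88.7 to 124 CPM.

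**Figure D3:**
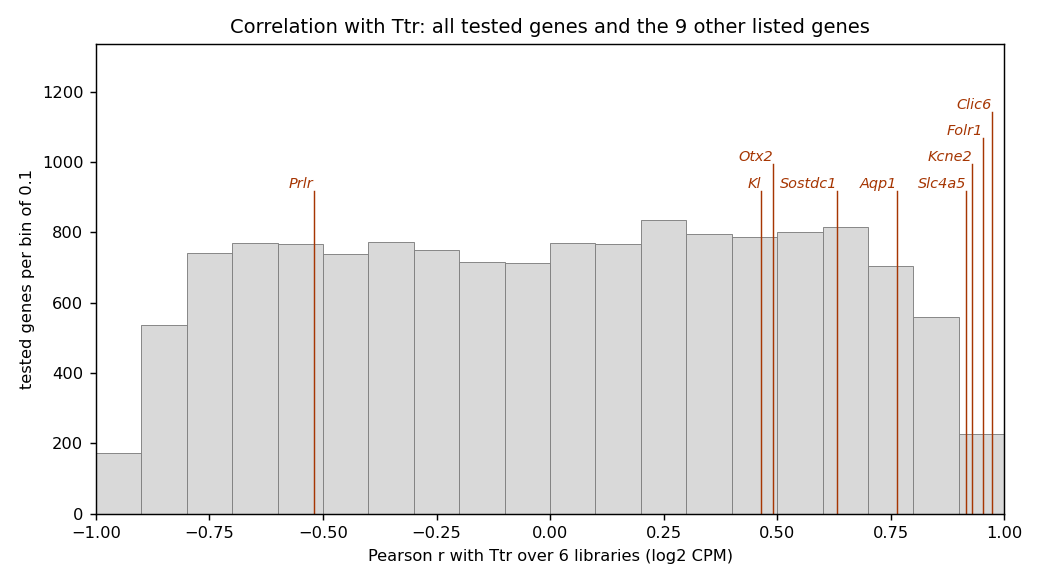
Number of tested genes per bin of 0.1 in Pearson r with Ttr over the 6 libraries (grey bars), with the r of the 9 other members as labelled lines. Clic6, Folr1, Kcne2 and Slc4a5 lie above 0.9, where 228 tested genes lie, and Prlr lies at -0.52.

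The vehicle replicate 2 and BPA replicate 2 libraries were the 2 highest for 8 of the 10 members, all but Otx2 and Prlr. The same held for 1567 of the 13741 genes tested (11.4%) and for 4.54% of the untested rows with a count. Kl is among the 8 with at most 4 counts in any library. A stricter rule, set after the data were seen, asked for at least 10 counts in the highest library of each group and at least 4 times the next library of the same group. It was met by 6 genes in vehicle replicate 2 and BPA replicate 2: Ttr, Kcne2, Folr1, Clic6, Slc4a5 and Tmem72. The other 8 pairings of a vehicle and a BPA library gave 0 or 1 gene. The members were chosen with these counts in view, so this is a description with no test. Tmem72, the only gene of the 6 outside the set, belongs to the wider list below and encodes a transmembrane protein. It had 0, 12 and 0 counts in vehicle and 2, 11 and 0 in BPA.

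Other genes of the choroid plexus epithelium were followed in a list of 40, of which 39 were in the table and 21 passed the filter on low counts. Vehicle replicate 2 and BPA replicate 2 were the 2 highest libraries for 10 of the 21 (47.6%), against 11.4% of all genes tested. Of the 18 that did not pass, the same 2 libraries were highest for 11 (61.1%), against 4.54% of the 9760 untested rows with a count. Where over 3 counts in some library were asked for, it was 11 of 14 (78.6%), against 7.59% of 3230 untested rows. A gene can meet that limit through these 2 libraries alone. The list was chosen with earlier results of these data known, so the shares are a description with no test. Car12, a carbonic anhydrase, had 17, 75 and 23 counts in vehicle and 33, 94 and 23 in BPA. Cdh3, which encodes P-cadherin, had 0, 20 and 5 counts in vehicle and 2, 19 and 0 in BPA. Calml4 had 0, 7 and 0 counts and 1, 18 and 0. Krt18, an epithelial keratin, had 0, 11 and 0 counts and 2, 9 and 0. Kcnj13, the inward rectifier channel Kir7.1, was seen in the same libraries alone, with 4 and 5 counts. Some other genes of the list were highest elsewhere. Slc13a4 had 0, 9 and 26 counts in vehicle and 11, 11 and 0 in BPA, and Rdh5 was highest in BPA replicate 1, at 3.14 CPM. Others were nearly even over the libraries: Slc4a10, a bicarbonate transporter that neurons also make, ran from 19.4 to 23.8 CPM and the cation channel gene Trpm3 from 24.4 to 32.1 CPM. Cldn2, which encodes a tight junction claudin, had at most 2 counts.

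**Figure D4:**
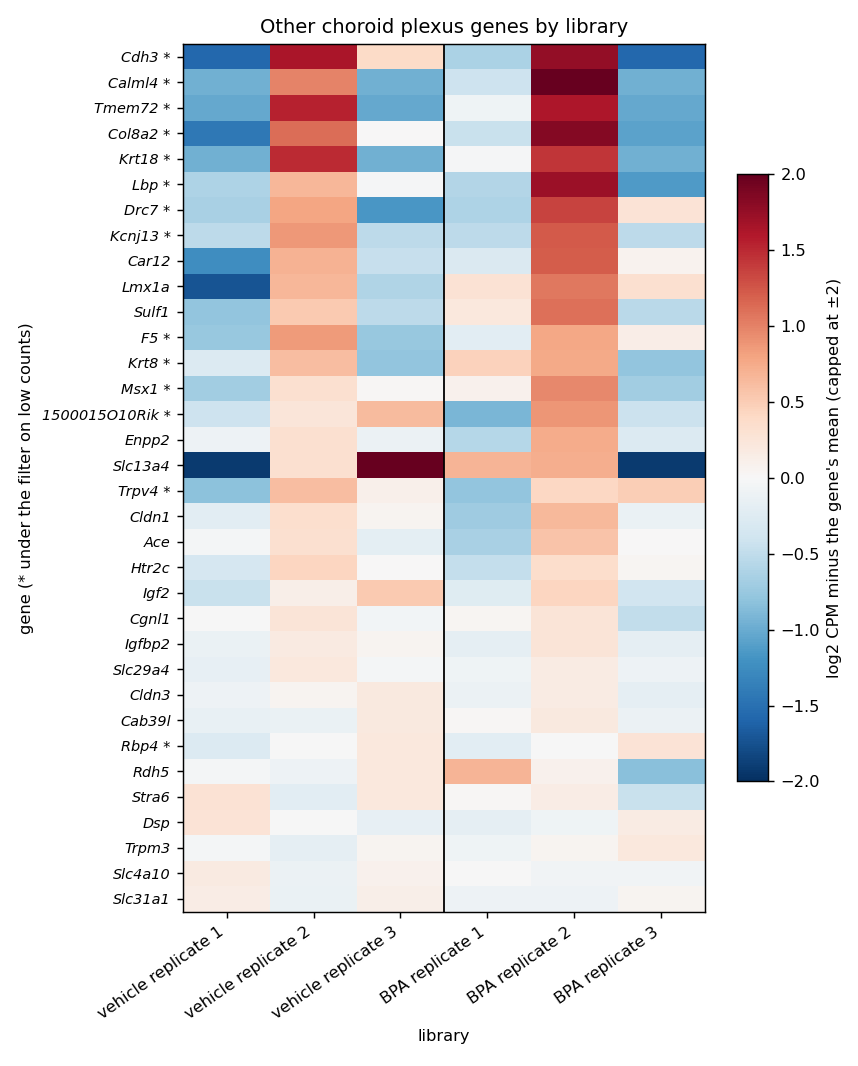
Log2 CPM minus the gene's own mean over 6 libraries (colour, capped at 2 in each direction) for 34 of the 35 genes of the wider list with over 3 counts in some library (1 is not shown), in order of their summed deviation in vehicle replicate 2 and BPA replicate 2; stars mark genes under the filter. The upper rows, among them Cdh3, Calml4, Tmem72 and Car12, are red in the columns of vehicle replicate 2 and BPA replicate 2 and blue or pale elsewhere, and the lowest rows, such as Trpm3 and Slc4a10, are pale in every column.

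Genes of other tissues that also make Ttr or Otx2 were read beside them. Of 11 genes of liver and yolk sac, which secrete TTR, none passed the filter, and their counts summed to 10, 7 and 9 in vehicle and 132, 6 and 2 in BPA. BPA replicate 1 held 93 counts of Afp, the fetal serum protein alpha-fetoprotein, and 16 of Apoa1, and the other 5 libraries held 0 of Afp and at most 2 of Apoa1. Vehicle replicate 2 and BPA replicate 2, where Ttr was high, therefore had no Afp. BPA replicate 1 had the third-highest Ttr (76 counts), and the part of the liver genes in that value was not tested. Of 11 genes of the retina and its pigment epithelium, which makes both Ttr and Otx2, Rpe65, Tyr, Mlana and Six6 were at 0 in every library, Pmel, Tyrp1, Rax and Best1 had at most 9 counts, and Mitf had 9 to 23. Dct, a pigment enzyme, had 52, 33 and 6 counts in vehicle and 44, 30 and 14 in BPA, and was highest in vehicle replicate 1 as Otx2 was in vehicle. The summed level of the 11 was 89.5 to 93.8 CPM in vehicle and 88.1 to 97.5 CPM in BPA, of which Rlbp1 made 77.9 to 89.4 CPM. The part of these genes in the Otx2 values was not tested. The 16 genes of the stroma and vessels of the plexus summed to 285 to 373 CPM in vehicle and 277 to 349 CPM in BPA. Of 13 tested, 1 (7.69%) was highest in vehicle replicate 2 and BPA replicate 2, against 11.4% of all genes tested. The cortical hem list, the neighbouring signalling centre, had 3 of 14 tested genes (21.4%) highest in those libraries, and the 30 genes of multiciliated cells 2 of 12 (16.7%). Foxj1, the master factor of motile cilia, had 64, 90 and 55 counts in vehicle and 66, 121 and 36 in BPA. Among 10 genes read as signs of tissue handling, such as immediate early genes, 3 of 7 tested (42.9%) had the same pair of libraries highest. That share was near the 47.6% of the wider choroid plexus list. Their sums were 155 to 197 CPM in vehicle and 164 to 185 CPM in BPA. The median r with Ttr over tested genes was 0.61 for the handling genes, 0.55 for the hem list and 0.52 for the wider choroid plexus list. The 15 genes of the cortex itself summed to 4705 to 5285 CPM in vehicle and 4912 to 5296 CPM in BPA, so the labelled tissue was present in every library.

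The study asked whether prenatal BPA changes expression in the fetal cortex. No member passed the test of BPA against vehicle. In edgeR's quasi-likelihood test with Benjamini-Hochberg adjustment over 13741 genes, 0 genes (0.00%) passed the adjusted threshold of 0.1, and 302 (2.20%) had an unadjusted p under 0.05. DESeq2 called 3 genes, none of them a member, but gave Ttr no p-value. The filter on low counts kept 4 of the 10 members, Ttr, Clic6, Sostdc1 and Otx2, and none of the 4 had an unadjusted p under 0.05. Ttr differed by 0.71 on the log2 scale (BPA minus vehicle, SE 1.08, 95% interval -1.6 to 3.0, unadjusted p = 0.52, adjusted p = 0.9998). The spread between libraries was wide enough that this interval holds changes of Ttr in both directions. Clic6 differed by 0.86 (SE 0.76), Sostdc1 by 0.03 (SE 0.51) and Otx2 by -0.34 (SE 0.46). The BPA and vehicle libraries overlapped for all 10 members, whereas they did not overlap for 928 of the genes tested (6.75%).

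The filter was then lowered to at least 10 counts in at least 2 libraries, which was done after the data were seen and kept 14089 genes. It added Kcne2, Folr1, Aqp1 and Slc4a5, and left Kl and Prlr without a test. At that setting 2.19% of genes had an unadjusted p under 0.05 and none of the 8 members did. The differences were 0.86 (SE 0.88) for Kcne2, 1.08 (SE 0.86) for Folr1, 0.45 (SE 0.84) for Aqp1 and 0.41 (SE 0.97) for Slc4a5. With no filter at all, over 23501 rows, Ttr was called by edgeR (adjusted p = 3.52e-05). Its standard error there was 0.12 on the log2 scale, though its vehicle libraries ran from 2.21 to 195 CPM, so this call does not carry the spread between replicates.

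A single library decided the direction of most members. Without vehicle replicate 2, Ttr was 4.91 log2 units higher in BPA (edgeR, unadjusted p = 0.0016, adjusted p = 0.95) and Clic6 3.13 higher, against a background of 5.10% of genes with an unadjusted p under 0.05. Without BPA replicate 2, Ttr was at -2.62 (edgeR, unadjusted p = 0.039, adjusted p = 0.99), Clic6 at -0.83, Sostdc1 at -1.41 and Otx2 at -1.44, with 4.02% of genes under the same limit. Under the lowered filter, Kcne2 was at 3.06 without vehicle replicate 2 and at -2.34 without BPA replicate 2, Folr1 at 4.46 and -0.59, Aqp1 at 1.59 and -3.57, and Slc4a5 at 2.48 and -3.24. No member passed the adjusted threshold in these fits.

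With vehicle replicate 2 and BPA replicate 2 both left out, which was chosen after the data were seen and leaves 2 libraries per group, the members did not share a direction. Ttr was 1.57 log2 units higher in BPA (SE 0.33, edgeR adjusted p = 0.072), at 11.9 and 10.2 CPM in BPA against 2.21 and 5.72 CPM in vehicle, and was among 15 of 13643 genes called (0.110%). Sostdc1 was at -1.22 (SE 0.53, adjusted p = 0.66) and Otx2 at -1.30 (SE 0.45, adjusted p = 0.52) in the same edgeR fit. Under the lowered filter Clic6 was at 1.44 and Folr1 at 2.78, while Aqp1 was at -2.42, Slc4a5 at -1.16 and Kcne2 at -0.15, each from few counts. The library with the Afp counts, BPA replicate 1, is one of the 4 in this comparison.

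**Figure D5:**
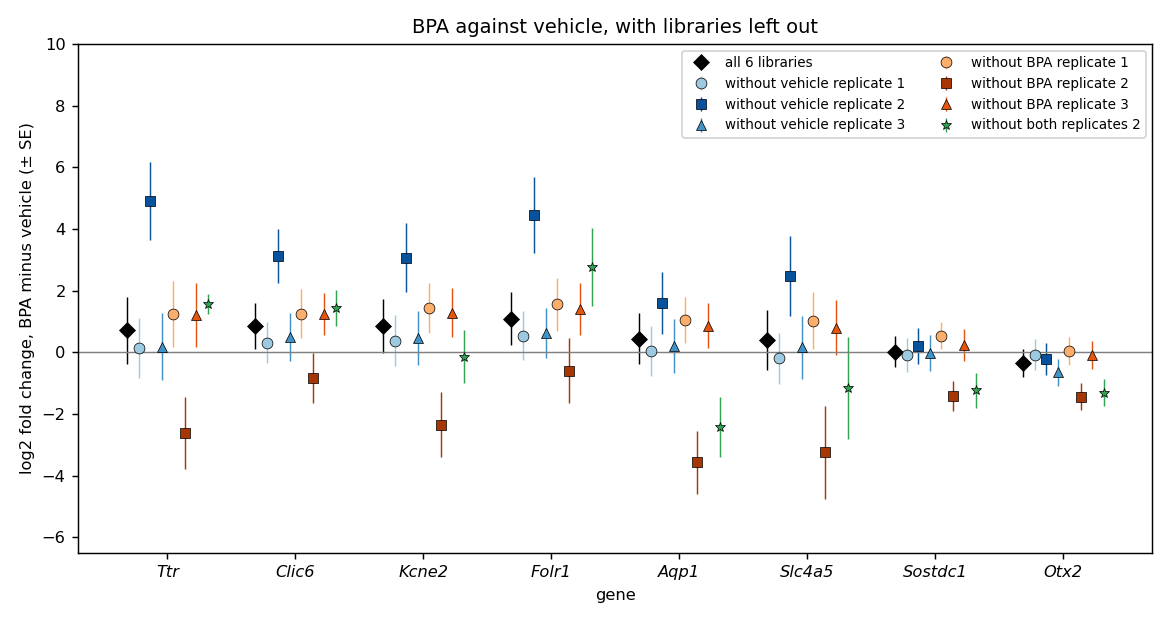
Log2 fold change (BPA minus vehicle, with SE bars) of 8 genes in edgeR fits on the rows with at least 10 counts in 2 libraries, for all 6 libraries (black), without each library in turn (colours) and without both replicates numbered 2 (green stars). Leaving out vehicle replicate 2 moves Ttr to 4.91 and leaving out BPA replicate 2 moves it to -2.62, on either side of 0.71 with all libraries, and Sostdc1 and Otx2 move least.

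The pathways in which the members act were counted next, and the lists share genes. Over the 13741 genes tested, 302 (2.20%) had an unadjusted p under 0.05. A single such gene in a list is therefore not read as a result about the list. Of the 21 tested genes of the wider choroid plexus list, 0 were higher in BPA at an unadjusted p under 0.05, and the median log2 difference was -0.05 against 0.00 over all genes tested. Lmx1a, a roof plate homeodomain factor, was at 0.92 and did not pass that limit. It had 3, 27 and 7 counts in vehicle and 18, 31 and 10 in BPA. Of 20 tested genes of fluid secretion, 1 was higher: Car14, a membrane carbonic anhydrase, with 3.09, 4.65 and 3.55 CPM in vehicle and 4.40, 8.29 and 4.96 CPM in BPA. Its difference was 0.66, and that of Car12 was 0.63. No list gene had an adjusted p under 0.1 in the edgeR fit to all 6 libraries with the filter on low counts.

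Around thyroid hormone and retinol, the cargo of TTR, 0 of 14 tested genes were higher at that unadjusted limit, and Crabp1, a retinoic acid binding protein, was lower (-0.47). Of 14 tested folate genes none was under it, against 2.20% of all genes tested, with Mtrr at 0.23. Among 11 tested genes of prolactin and klotho signalling, Stat5b, a transcription factor downstream of the prolactin receptor, was at -0.44 (unadjusted p = 0.013 in edgeR), with Fgfr3 at 0.23 next. The 7 tested channel partners of KCNE2 had none, with Kcnq3 at 0.14 and Kcnc2 at -0.09, nor did the 14 targets and partners of SOSTDC1, with Id3 at 0.40 and Lrp5 at -0.12.

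In the neighbouring tissues, 1 of 14 tested hem genes was higher at that limit, which 2.20% of all genes tested met in either direction. It was Rspo3, a secreted enhancer of Wnt signals (0.39, unadjusted p = 0.013 in edgeR). Rspo3 had 22.4, 19.4 and 22.1 CPM in vehicle and 29.2, 28.9 and 24.5 CPM in BPA. The 12 tested genes of multiciliated cells gave none, with Trp73 at 0.28 and Rsph9 at -0.42. The 13 of plexus stroma gave none, with Plvap at -0.55 and Igfbp4 at -0.13, and the 3 of the pigment epithelium none, with Mitf at -0.27 and Dct at 0.22. Of 6 tested diencephalic genes 1 was lower, Six3 at -0.42, followed by Tcf7l2 at -0.30. In the ventral telencephalon 7 of 14 were lower and 0 higher, led by Nkx2-1 at -1.25 (adjusted p = 0.25 in edgeR) and Lhx8 at -1.34. Nkx2-1 was among the 3 genes that DESeq2 called, and edgeR called it without vehicle replicate 3 and without BPA replicate 2. With no filter, and with both replicates numbered 2 left out, edgeR called Nkx2-1, Lhx8 and Zic1 of this list. Vehicle replicate 2 and BPA replicate 2 were the 2 highest libraries for 1 of those 14 genes (7.14%), against 11.4% of all genes tested. The 15 cortical genes gave none, with Neurog2 at 0.17 and Bcl11b at -0.11. Of 7 tested red cell genes 1 was lower, Hba-a1 at -0.43, with Slc4a1 at -0.62, and Hba-a1 was called by edgeR with both replicates numbered 2 left out. The 10 microglial genes gave none, with Tyrobp at -0.46 and Trem2 at 0.26, nor did the 7 tested handling genes, with Egr1 at -0.39 and Junb at -0.26.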

How the data were processed

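Total RNA of GD15.5 cortex was sequenced by the authors as strand-specific libraries. Per the labels and the study's methods, reads were checked with FastQC, aligned with TopHat 2.0.14 to GRCm38 and counted with featureCounts on GENCODE models; StringTie 1.2.4 is also named. The deposited values are raw counts per gene, with 0 columns left unused. Strand and multi-mapping settings are not given in the sources used here.

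Genes were filtered with edgeR's default (minimum count 10, total 15), scaled by TMM and tested with the edgeR 4.0.16 quasi-likelihood test in R 4.3.3, BPA against vehicle, with p-values adjusted by Benjamini-Hochberg at a threshold of 0.1. CPM used TMM-scaled library totals, and correlations log2 CPM with a prior count of 2. Alternatives were other scalings and filters, DESeq2 1.42.0, limma 3.58.1 with voom, and libraries left out. The fit was tested on simulated counts over 13610 genes, in which it recovered 196 of 200 genes changed by 2-fold, with 13 false calls; the simulated spread (coefficient of variation 0.1) was far below that of Ttr. Gene coordinates came from the GRCm38 annotation, and promoters from RefSeq.

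Named were all 10 members, the 2 tested genes of each list with the smallest p averaging at least 1 CPM, and the 10 tested non-members averaging at least 1 CPM most correlated with Ttr. Some other genes were named after their values were seen (such as Tmem72, Cdh3 and Afp). Some results of this rule are not reported here. Members and lists were chosen with earlier results of these data known.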

Additional observations from a re-analysis of the deposited data

How the results depend on the processing

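The RLE, upper quartile and library-size scalings, limma-voom and the filter of 1 CPM in 3 libraries left 0 genes past the adjusted threshold, as did the filter of 10 counts in 2 libraries. DESeq2 called 3 genes (126 with an unadjusted p under 0.05), no filter 19 (620), and leaving out vehicle replicate 2 and BPA replicate 2 together 15 (954). With each library left out in turn, 0 to 1 gene was called and 194 to 708 had an unadjusted p under 0.05. The fit with no filter tests 23501 rows. Its calls held Ttr, at 0.70, and Afp, which was counted in BPA replicate 1 alone. The cause of the other shifts was not tested.

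Sostdc1, at 0.03, turned to -0.0069 with DESeq2, -0.46 with limma-voom and -1.22 with both libraries left out. Aqp1 turned to -1.09 with limma-voom and -2.42 with both left out, where Kcne2 was at -0.15 and Slc4a5 at -1.16. With each library left out in turn, the log2 difference ran from -2.62 to 4.91 for Ttr, -0.83 to 3.13 for Clic6, -1.41 to 0.54 for Sostdc1, -1.44 to 0.040 for Otx2, -2.34 to 3.06 for Kcne2, -0.59 to 4.46 for Folr1, -3.57 to 1.59 for Aqp1 and -3.24 to 2.48 for Slc4a5. The upper end was without BPA replicate 1 for Sostdc1 and Otx2 and without vehicle replicate 2 for the rest, and the lower end was without BPA replicate 2 for all 8. The median correlation of the 9 other members with Ttr was 0.76, 0.54 as Spearman rho, and -0.36 without vehicle replicate 2 and BPA replicate 2.

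No paired analysis was possible because the labels give the libraries no shared replicate numbers or litters; the numbers used here follow accession order. With 3 libraries per group, no group was large enough to search for outlying samples. At 3444601 to 7180835 counts per library, Kl, Prlr and, outside 2 libraries, Slc4a5, Folr1, Kcne2 and Aqp1 had too few counts to show a difference.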
